A study of Mus musculus with 15 samples.

Results

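The comparison set dHD28 cells, mouse mesenchymal stromal cells (MSC) that had been taken through a hepatogenic protocol and then returned to MSC medium, against MSC that had never left it. Groups were taken from the sample titles, which gave 3 dHD28 and 3 MSC arrays of the 15 arrays in the study, and all 18193 genes with a named probe set on the Affymetrix mouse genome array were described, each by 1 probe set. The study asked how reversible hepatogenic differentiation is and what part DNA methyltransferases play in it. The remaining arrays were 3 each of HD28 cells, primary hepatocytes and MLC cells, the last derived from primary hepatocytes with decreasing hTGF-β1 in MSC medium.

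The dHD28 cells came from HD28 cells whose second differentiation medium was replaced by MSC medium, which is low glucose DMEM with 10% fetal bovine serum. The labels do not give how long they stayed there. HD28 cells had been kept in IMDM with 20 ng/ml HGF, 10 ng/ml bFGF and 0.61 g/L nicotinamide for 7 days, and then in IMDM with 20 ng/ml oncostatin M, 1 µmol/L dexamethasone and an ITS+ supplement. MSC grew in the low glucose DMEM with 10% serum throughout. The labels name neither the strain, the age of the animals nor the tissue of the MSC, and they do not say whether replicates were separate cultures, so the p-values below measure the spread between these arrays, which may be technical. In RNA from whole cultures, fewer cells that express a gene and less RNA per cell cannot be told apart.

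MSC are adherent fibroblast-like cells that secrete matrix, carry an actin stress fibre programme and can be steered towards bone, cartilage and fat. HGF and FGF signal through receptor tyrosine kinases, oncostatin M acts through gp130 and STAT3, and dexamethasone acts through the glucocorticoid receptor, and this sequence of factors is widely used to push stromal cells towards hepatocyte genes. DNA methyltransferases write cytosine methylation, which can carry a memory of gene activity through cell division, and TET enzymes oxidise it.

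No gene passed the test between dHD28 cells and MSC. At a Benjamini-Hochberg adjusted p under 0.05 and a change of at least 2-fold in limma, 0 of 18193 genes were called (0.0%), and 0 were called without the limit on fold. The lowest adjusted p in limma was 1, and 205 genes (1.13%) had an unadjusted p under 0.05, of which 48 (0.264%) were higher and 157 (0.863%) lower in dHD28 cells. In 899 genes (4.94%) the 3 dHD28 arrays did not overlap the 3 MSC arrays, with dHD28 cells above MSC in 262 (1.44%) and below them in 637 (3.5%). If the arrays of both groups were exchangeable, such a separation would have a probability of 0.1 per gene, above the share seen. That value leaves out the spike-in classes described below, which both groups contain and which make arrays of a group differ. The share seen is therefore not a test against it. A gene that missed the threshold is not shown to be equal in both groups, so the size of each difference is given below with its interval. The 10092 probe sets that carry no single gene name were tested in the same way, with 0 called and 219 (2.17%) at an unadjusted p under 0.05.

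The differences themselves were small. The median absolute log2 difference was 0.12, the 95th percentile was 0.39 and the 99th was 0.58, and 17849 genes (98.1%) differed by less than 0.5 on the log2 scale. Only 20 genes (0.11%) differed by 2-fold or more between group means, 5 of them higher (0.0275%) and 15 lower (0.0824%) in dHD28 cells. For 15281 genes (84.0%) the whole 95% interval of the difference lay inside a 2-fold change in either direction, and for 8306 (45.7%) it lay inside a 1.5-fold change. These values include dim genes, and with those left out the share inside a 2-fold change was 80.4%. The median interval reached 0.47 log2 units to each side of the estimate, from 0.32 at the 10th percentile of genes to 0.94 at the 90th. For a gene at that median, a difference under 1.38-fold would have had an interval that held 0.

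**Figure D1:**
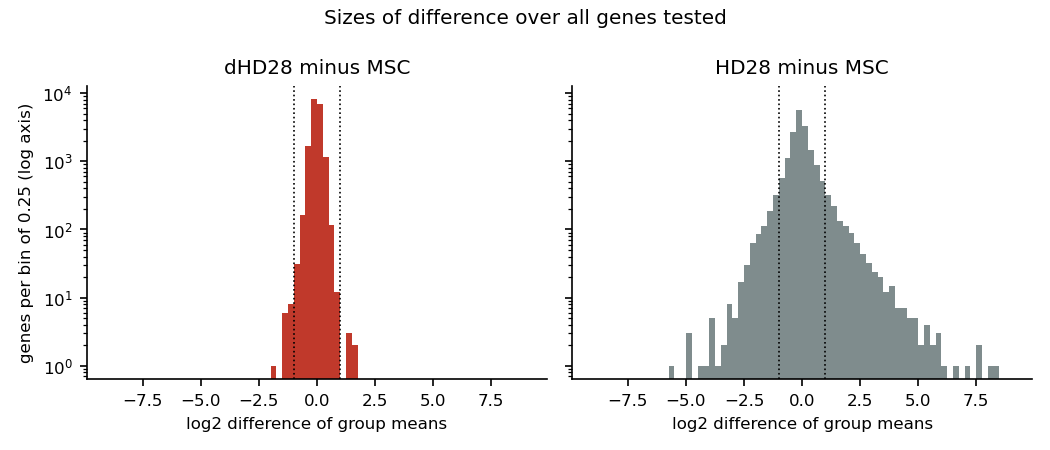
Histogram of the signed log2 difference of group means over 18193 genes in bins of 0.25, with the number of genes on a log axis, for dHD28 minus MSC and for HD28 minus MSC (3 arrays a group). Dotted lines mark a 2-fold difference. The median absolute difference is 0.12 for dHD28 minus MSC and 0.25 for HD28 minus MSC, and the 99th percentile is 0.58 against 2.71. The HD28 means include replicate 3, which stood apart in hepatocyte genes.

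The same MSC arrays gave much larger differences against HD28 cells. There 1231 genes (6.77%) were called by limma, 590 higher (3.24%) and 641 lower (3.52%) in HD28 cells, and 1958 (10.8%) differed by 2-fold or more. The HD28 means include replicate 3, which alone of its group had hepatocyte genes at hepatocyte-like levels. Its Alb was 13.80, against 3.38 and 3.74 in replicates 1 and 2. The part of that array in these sizes was not tested. The HD28 to MSC difference was under 0.5 log2 units in 72.3% of genes and its interval lay inside a 2-fold change in 66.2%. Over those 1231 genes the median absolute log2 difference was 0.16 for dHD28 minus MSC and 1.58 for HD28 minus MSC. Both differences use the 3 MSC arrays, so they are set side by side without a test of one against the other. Of the 1231 genes, 827 (67.2%) had an interval for dHD28 minus MSC inside a 2-fold change, and 6 differed by 2-fold or more. Against HD28 cells directly, dHD28 cells had 1605 called genes (8.82%).

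Array by array, the distance of dHD28 cells from MSC overlapped the distances of arrays within a group. The root mean square log2 difference over all genes was 0.23 to 0.65 for the 9 pairs of a dHD28 and an MSC array, with a median of 0.45. Within groups it was 0.41, 0.54 and 0.63 for the 3 pairs of dHD28 arrays, against 0.29, 0.66 and 0.66 for the 3 pairs of MSC arrays. Pairs of a dHD28 and an HD28 array lay at 0.70 to 1.18, above every dHD28 to MSC pair. Pairs of an HD28 and an MSC array lay at 0.67 to 1.20, also above them. The pairs of HD28 arrays lay at 0.49, 0.79 and 0.83, so the lower part of both ranges overlapped the distances within HD28. The highest value of each range was a pair with HD28 replicate 3. Pairs of a dHD28 and an MLC array lay at 0.27 to 0.63, a range like that to MSC.

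Part of this spread followed a technical signal. The poly-A spike-in controls, bacterial transcripts added to the RNA before labelling, averaged 4.44, 7.84 and 4.57 on the log2 scale in dHD28 replicates 1 to 3, against 7.37, 4.63 and 4.80 in MSC replicates 1 to 3, so that dHD28 replicate 2 and MSC replicate 1 formed a high class that the labels do not name. These 2 arrays were also the closest dHD28 and MSC pair, at 0.23. The 5 dHD28 to MSC pairs within a spike-in class lay at 0.23 to 0.45, with a median of 0.30, and the 4 pairs across classes lay at 0.57 to 0.65. Within groups, the 1 pair of the same class lay at 0.41 for dHD28 and at 0.29 for MSC, and dHD28 replicate 1 lay farther than both from MSC replicates 2 and 3, at 0.45 and 0.44. Over all groups, 403 genes (2.22%) were called between the classes, 397 (2.18%) lower and 6 (0.033%) higher in the high class. Each of the 2 groups holds 1 array of the high class. With this class fitted as a block, 0 genes were called between dHD28 cells and MSC, the median interval narrowed to 0.41 to each side, and 20 genes differed by 2-fold or more. With the 2 low class arrays of each group alone, 0 genes were called and 94 differed by 2-fold or more.

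**Figure D2:**
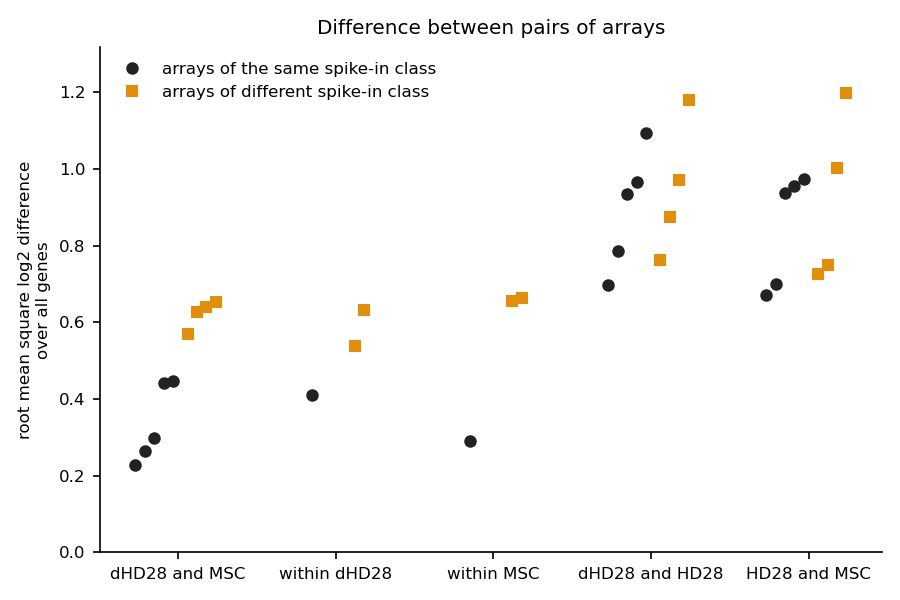
Root mean square log2 difference over 18193 genes for pairs of arrays, by pair of groups, with pairs within and across spike-in classes marked. The dHD28 to MSC pairs span 0.23 to 0.65, the within-MSC pairs reach 0.66, and the dHD28 to HD28 pairs lie at 0.70 or above.

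Of 6 mesenchymal stromal markers, Col1a1, Pdgfrb and Cd44 stood far above their hepatocyte level in both groups, while Eng, Nt5e and Thy1 did not. Col1a1, the type I collagen chain, had log2 intensities of 13.24, 13.08 and 13.05 in dHD28 cells, against 12.83, 13.45 and 13.22 in MSC, with a mean of 4.32 in hepatocytes. Eng, the TGF-beta co-receptor endoglin, had 6.27 to 6.48 in dHD28 cells and 6.40 to 6.63 in MSC, with a mean of 8.02 in hepatocytes. Nt5e, an ectonucleotidase, had 5.80 to 6.07 in dHD28 cells and 5.91 to 6.11 in MSC, with 6.14 in hepatocytes, and the range of Thy1 in both groups held or neared its hepatocyte mean of 4.64. The log2 sum of the 6 markers spanned 51.2 to 52.8 in dHD28 cells and 51.5 to 53.3 in MSC. Alb, the main secreted protein of hepatocytes, stood at 3.35, 3.74 and 3.94 in dHD28 cells, against 3.92, 3.83 and 3.95 in MSC, while hepatocytes averaged 14.12. The sum of 8 Kupffer cell and macrophage markers spanned 33.7 to 35.2 in dHD28 cells and 34.3 to 35.2 in MSC, with 2 of them below the lower quartile of every array in both groups. HD28 replicate 3 stood apart, with Alb at 13.80 where HD28 replicates 1 and 2 had 3.38 and 3.74. It enters the shared estimate of spread and widens the intervals of hepatocyte genes.

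The genes with the largest residual differences were named by 2 rules. The first took the 5 genes in each direction whose 95% interval lay farthest from 0. The second took the largest differences of group means and was applied after the values were seen, because the rule set for called genes found none. All of these genes had an adjusted p of 1 in limma, so what follows is a description of levels.

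Mfap3l encodes a membrane protein related to the microfibril-associated protein MFAP3. Its log2 intensity was 4.01, 4.52 and 6.20 in dHD28 cells, against 3.56, 2.71 and 3.66 in MSC. The MSC values were dim, near or below the lower quartile of their arrays, which was 3.57, 3.52 and 3.52. All dHD28 arrays lay above all MSC arrays, with dHD28 replicate 3 well above the other two. The difference was 1.60 (95% interval 0.60 to 2.61), a 3.04-fold ratio of means, and 0.96 without dHD28 replicate 3. Its other probe sets were dimmer and differed by 0.73 and 0.54. In HD28 cells Mfap3l had 3.47, 2.79 and 3.66, the level of MSC.

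Rassf6, a member of the Ras association domain family, had 7.04, 5.47 and 5.95 in dHD28 cells, against 4.84, 4.82 and 4.82 in MSC. The MSC arrays were tight and all dHD28 arrays lay above them, dHD28 replicate 1 highest. The difference was 1.33 (0.36 to 2.29), or 0.88 without that array. HD28 cells had 3.61, 3.70 and 5.18, so only HD28 replicate 3 was above MSC.

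Tet3, the methylcytosine dioxygenase, stood on the lower side. It had 4.15, 5.27 and 5.18 in dHD28 cells, against 5.93, 5.69 and 5.61 in MSC. Every dHD28 array was below every MSC array, dHD28 replicate 1 lowest. The difference was -0.88 (-1.54 to -0.21), with -0.52 without dHD28 replicate 1, and Tet3 averaged -0.62 for HD28 minus MSC.

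Ltbp2, a latent TGF-beta binding protein of elastic microfibrils, had 7.13, 6.80 and 7.53 in dHD28 cells and 2.87, 2.93 and 4.85 in HD28 cells, against 7.58, 9.16 and 8.74 in MSC. The dHD28 arrays lay below all MSC arrays, though dHD28 replicate 3 and MSC replicate 1 nearly met. The difference was -1.34 (-2.47 to -0.21) for dHD28 minus MSC and -4.95 for HD28 minus MSC. It was the largest residue among the 1231 genes called in HD28 cells.

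The 250 bases before the first listed start of these 4 genes are shown because each is among the 5 genes of its direction with the interval farthest from 0, none of their brightest probe sets is of a kind that can bind other transcripts, and the study concerns DNA methylation, whose substrate is the CpG dinucleotide. CpG is in capitals, sequences run 5′ to 3′ on the strand of the gene and come from RefSeq on GRCm38.p6, and methylation at these bases was not analysed here. They lie at chr8:60632575-60632824 on the plus strand for Mfap3l, chr5:90640528-90640777 on the minus strand for Rassf6, chr6:83441679-83441928 on the minus strand for Tet3 and chr12:84876492-84876741 on the minus strand for Ltbp2.
Mfap3l: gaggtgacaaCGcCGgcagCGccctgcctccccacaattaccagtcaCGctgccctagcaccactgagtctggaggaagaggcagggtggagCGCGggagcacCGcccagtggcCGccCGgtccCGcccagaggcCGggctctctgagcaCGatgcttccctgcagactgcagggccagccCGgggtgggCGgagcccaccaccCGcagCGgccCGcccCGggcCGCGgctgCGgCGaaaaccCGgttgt
Rassf6: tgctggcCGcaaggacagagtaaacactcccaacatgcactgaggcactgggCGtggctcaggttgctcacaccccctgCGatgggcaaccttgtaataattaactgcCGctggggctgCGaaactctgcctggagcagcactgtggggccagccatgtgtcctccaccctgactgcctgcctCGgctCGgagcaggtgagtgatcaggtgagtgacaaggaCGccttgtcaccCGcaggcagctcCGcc
Tet3: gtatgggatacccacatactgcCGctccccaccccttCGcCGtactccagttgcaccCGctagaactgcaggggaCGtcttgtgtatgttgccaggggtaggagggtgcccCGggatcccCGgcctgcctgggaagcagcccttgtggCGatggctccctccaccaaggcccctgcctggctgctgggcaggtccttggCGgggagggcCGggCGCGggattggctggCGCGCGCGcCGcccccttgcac
Ltbp2: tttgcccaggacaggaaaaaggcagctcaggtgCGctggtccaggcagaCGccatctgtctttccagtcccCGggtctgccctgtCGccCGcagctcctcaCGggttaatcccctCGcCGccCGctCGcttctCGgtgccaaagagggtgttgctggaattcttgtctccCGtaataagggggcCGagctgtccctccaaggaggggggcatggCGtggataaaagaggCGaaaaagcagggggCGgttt
They hold 23 CpG for Mfap3l, 10 for Rassf6, 17 for Tet3 and 16 for Ltbp2. Plaat1, Siglecg, Olfr288 and Epsti1 met the same conditions and are not shown. Their counts were 15 for Plaat1, 1 for Siglecg, 1 for Olfr288 and 2 for Epsti1. Over the 14452 genes with such a promoter the median was 13, with quartiles at 5 and 21, and 96.8% held at least 1 CG. None of the 4 sequences shown holds the letters TATAAA on either strand, which 9.0% of these promoters do. No difference between gene sets was drawn from these counts, because promoters were given for fewer genes than such a comparison needs.

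Among the other genes with intervals far from 0, Plaat1, a phospholipase and acyltransferase, was the most even. It had 5.68, 5.45 and 5.59 in dHD28 cells, against 4.99, 4.96 and 5.04 in MSC, so the groups were separate and both tight. The difference was 0.58 (0.26 to 0.90), and its second, dimmer probe set gave -0.15. Map3k7cl had 4.31, 4.29 and 4.59 in dHD28 cells, against 3.95, 3.63 and 3.74 in MSC, again without overlap, for a difference of 0.62 (0.22 to 1.03). Siglecg, a sialic acid binding lectin, differed by 0.98 (0.16 to 1.79), but MSC replicate 1 at 8.66 lay above dHD28 replicate 3 at 8.03.

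On the lower side, Epcam, an epithelial adhesion molecule, had 6.27, 6.76 and 6.70 in dHD28 cells, against 7.13, 7.46 and 7.34 in MSC. The groups did not overlap and the difference was -0.73 (-1.08 to -0.38). The probe set is of a kind that can bind other transcripts, and the other Epcam probe set, at a mean of 3.75, differed by -0.20. Epsti1, an interferon-inducible gene, differed by -0.53 (-0.84 to -0.21) on its brightest probe set and by 0.00, 0.00 and 0.28 on the other 3. Olfr288, an olfactory receptor gene, differed by -0.70 (-1.12 to -0.28) at levels of 2.89 to 3.33 in dHD28 cells and 3.52 to 4.12 in MSC, among the dim probe sets of these arrays.

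**Figure D3:**
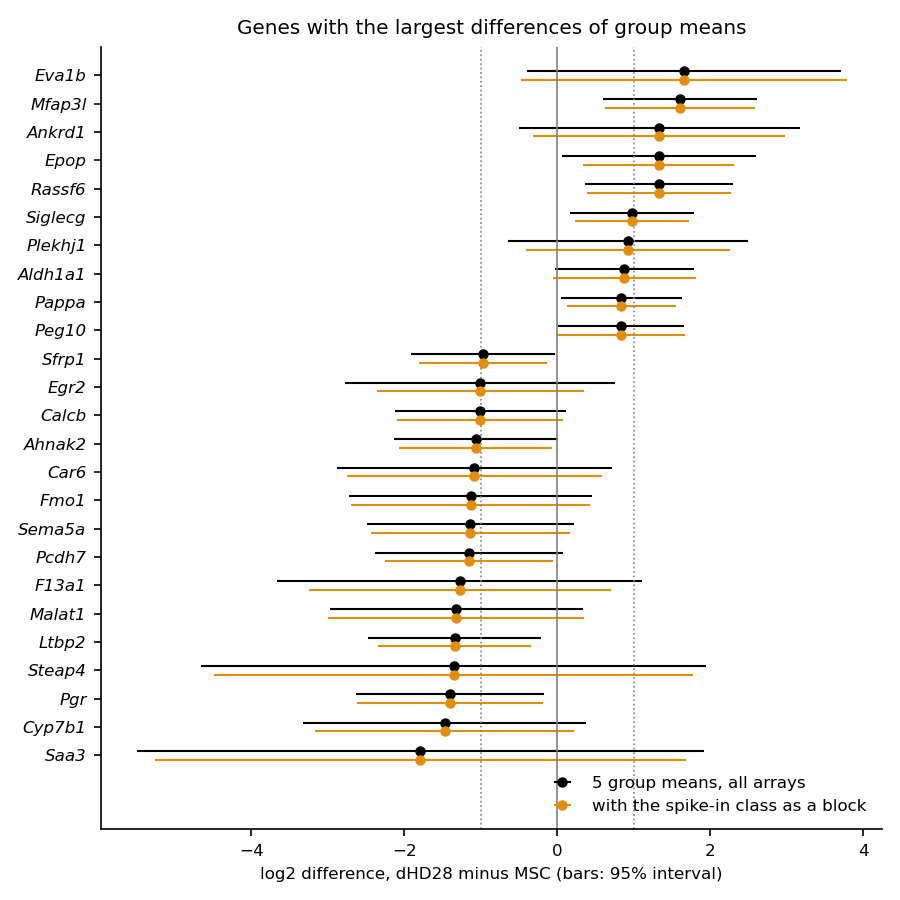
log2 difference dHD28 minus MSC with its 95% interval for the genes with the largest differences of group means, from 5 group means over all arrays (black) and with a block for spike-in class (orange). Mfap3l and Rassf6 lie above 0 and Ltbp2 and Pgr below 0 over their whole interval, while Eva1b, Saa3 and Steap4 have intervals that reach across 0.

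Of the other large positive differences, Eva1b, a transmembrane protein gene, had 8.06, 9.10 and 7.91 in dHD28 cells, against 8.45, 4.77 and 6.89 in MSC. Its difference of 1.65 (-0.40 to 3.71) rested on MSC replicate 2, since MSC replicate 1 overlapped the dHD28 arrays, and it was 0.69 without replicate 2. Ankrd1, an ankyrin repeat protein known as a target of YAP, had 9.97, 8.80 and 9.85 in dHD28 cells, against 8.76, 7.90 and 7.97 in MSC. These groups only just separated, and the difference was 1.33 (-0.51 to 3.17), with 1.49 on its second probe set. Epop, a partner of Polycomb repressive complex and Elongin, had 6.52, 6.26 and 4.60 in dHD28 cells, against 5.70, 3.93 and 3.77 in MSC. MSC replicate 1 overlapped there, and the difference was 1.33 (0.06 to 2.60), or 1.94 without it. Pappa, the protease that frees IGF from IGFBP4, had 6.64, 6.41 and 7.17 in dHD28 cells, against 5.94, 5.95 and 5.80 in MSC, a separation of 0.84 (0.05 to 1.63). Its other probe sets gave 0.75 and -0.13, and the average of all 3 gave 0.49. Peg10, an imprinted gene of retrotransposon origin, differed by 0.83 (0.01 to 1.65), and by 0.26 without dHD28 replicate 1.

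Several large negative differences depended on 1 array. Saa3, an acute phase serum amyloid gene, had 5.34, 5.82 and 4.97 in dHD28 cells, against 5.76, 5.53 and 10.22 in MSC. Only MSC replicate 3 was high, and the difference of -1.79 (-5.50 to 1.91) was -0.27 without it. Steap4, a metalloreductase, went the same way, at -1.36 with all arrays and -0.03 without MSC replicate 3, where it stood at 7.80. The other Steap4 probe set, brighter over the dHD28 and MSC arrays (mean 5.29 against 4.48), gave -0.14. Car6, a secreted carbonic anhydrase, had -1.09 and -0.14 without MSC replicate 3. Malat1, a nuclear long noncoding RNA, had -1.32 on its brightest probe set, -0.20 without dHD28 replicate 1, and -0.84 to 0.30 on the other 6 probe sets.

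F13a1, the clotting factor XIII transglutaminase chain, had 6.96, 3.88 and 7.46 in dHD28 cells, against 4.57, 8.73 and 8.82 in MSC. The high class array was the low one in each group, and within each spike-in class the dHD28 arrays lay below the MSC arrays. The difference was -1.28 (-3.66 to 1.11), and with 1 array left out it ran from -0.17 (without dHD28 replicate 2) to -2.68 (without MSC replicate 1). With the low class arrays alone it was -1.57 (-2.07 to -1.07), in a fit in which no gene was called.

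In others, MSC replicate 1 sat with the dHD28 arrays. Pgr, the progesterone receptor, had 3.77, 3.87 and 5.33 in dHD28 cells, against 4.28, 6.88 and 6.04 in MSC. MSC replicate 1 lay among the dHD28 values and the difference was -1.40 (-2.63 to -0.18), from -2.13 to -0.83 with each array left out. Pcdh7, a protocadherin, differed by -1.16 (-2.39 to 0.08), and Sfrp1, a secreted Wnt inhibitor, by -0.97 (-1.91 to -0.03). In both, MSC replicate 1, at 6.23 for Pcdh7 and 6.96 for Sfrp1, overlapped the dHD28 arrays while the other MSC arrays lay above them. Cyp7b1, the oxysterol 7-alpha-hydroxylase, had 3.67, 3.34 and 5.15 in dHD28 cells, against 3.70, 6.69 and 6.19 in MSC. The difference was -1.47 (-3.32 to 0.37), and MSC replicate 1 again sat with the dHD28 arrays. The other probe sets of these genes were dimmer. They gave -0.27 and -1.03 for Pgr, -0.02 and -0.54 for Pcdh7, and -1.003 and -0.06 for Cyp7b1. All 5 Sfrp1 probe sets lay below 0, the dimmer ones from -1.26 to -0.31.

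The genes that the hepatogenic protocol had moved farthest were near the MSC level in dHD28 cells. Serpina3n, a serine protease inhibitor induced by glucocorticoids and inflammation, had 4.29, 4.90 and 4.75 in dHD28 cells and 13.16, 12.87 and 12.30 in HD28 cells, against 4.86, 4.58 and 4.79 in MSC. The dHD28 and MSC arrays overlapped fully, and the difference was -0.10 (-0.76 to 0.56) for dHD28 minus MSC and 8.03 for HD28 minus MSC. Apod, the lipocalin apolipoprotein D, had -0.30 (-0.89 to 0.29) for dHD28 minus MSC and 7.19 for HD28 minus MSC. Spon1, the matrix protein spondin 1, had -0.21 (-1.17 to 0.76) and 6.52 for the same 2 differences. Ctla2a, a cathepsin inhibitor of mouse, had 0.47 (-0.67 to 1.62) and 7.66.

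Of the 6 genes highest in HD28 cells, the aldehyde dehydrogenase Aldh1a1 had the largest remainder. The enzyme, which makes retinoic acid from retinaldehyde, had 3.51, 3.73 and 4.98 in dHD28 cells and 10.40, 11.88 and 12.21 in HD28 cells, against 3.42, 3.02 and 3.15 in MSC. The MSC values lay below the lower quartile of their arrays. All dHD28 arrays lay above the MSC arrays, dHD28 replicates 1 and 2 by little, and the difference was 0.88 (-0.03 to 1.78), or 0.43 without dHD28 replicate 3. Its paralog Aldh1a7 had 2.85, 3.21 and 4.57 in dHD28 cells, against 3.36, 3.30 and 2.92 in MSC, so that again dHD28 replicate 3 was the high array, at a difference of 0.35 (-0.75 to 1.45), or -0.16 without it. Probe sets of such close paralogs may share signal.

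Of the 6 genes lowest in HD28 cells, 5 had a dHD28 mean above that of MSC, the exception being Ltbp2. Actg2, the smooth muscle gamma actin, had 9.84, 10.10 and 9.71 in dHD28 cells and 4.37, 4.24 and 4.05 in HD28 cells, against 9.45, 9.0 and 9.18 in MSC. The dHD28 arrays were all above the MSC arrays, by 0.67 (0.05 to 1.29). Cnn1, the smooth muscle calponin, had 10.13, 9.59 and 9.56 in dHD28 cells, against 9.40, 9.47 and 9.47 in MSC, also without overlap, by 0.31 (-0.51 to 1.13). Ptn, the growth factor pleiotrophin, differed by 0.42 (-0.60 to 1.43) for dHD28 minus MSC and -5.62 for HD28 minus MSC. Crabp1, a retinoic acid binding protein, had 0.11 (-1.32 to 1.54), and Aqp1, a water channel, had 0.48 (-1.87 to 2.83), with dHD28 replicate 2 at 10.66 and MSC replicate 1 at 10.77, both of the high spike-in class, above the remaining arrays.

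**Figure D4:**
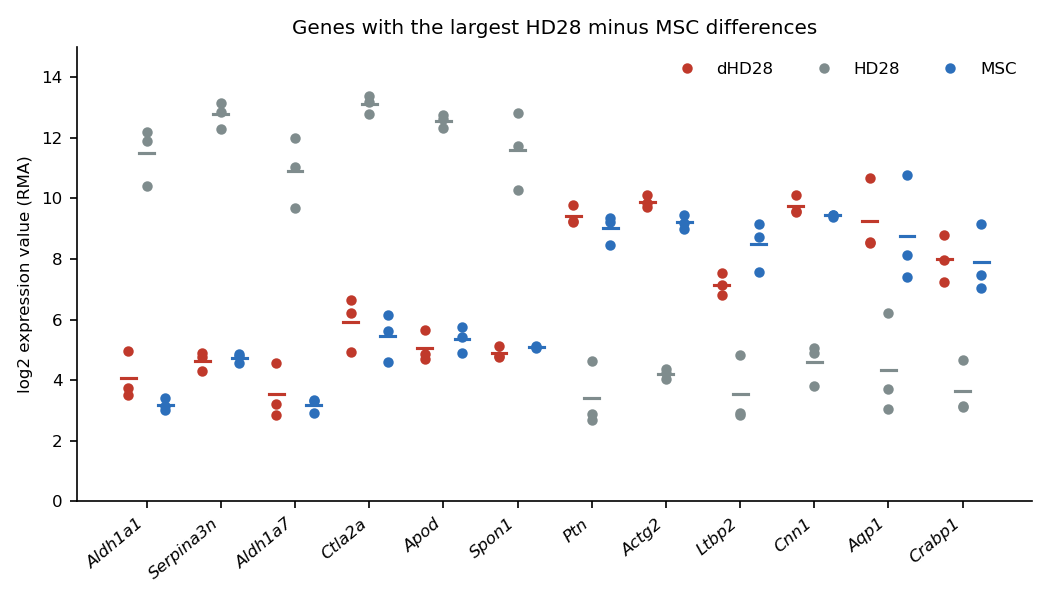
log2 intensity in each array of dHD28, HD28 and MSC for the 6 genes highest and the 6 genes lowest in HD28 cells against MSC, with a short line at each group mean. The dHD28 points lie near the MSC points while the HD28 points stand apart, and Ltbp2 is the gene whose dHD28 points lie lowest below MSC.

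The contractile and TGF-beta response list, with 25 measured genes, had 0 called members and a median log2 difference of 0.08, against -0.02 over all genes. Of its members, 19 lay above 0, 12 had an interval inside a 2-fold change, and 4 were higher and 1 lower without overlap. Over all genes tested, 84.0% had such an interval, 1.44% were higher and 3.5% lower without overlap. Tagln, the actin binding protein transgelin, had 12.25, 11.69 and 11.75 in dHD28 cells, against 11.64, 11.48 and 11.45 in MSC. That separation was 0.38 (-0.61 to 1.36), and Acta2, the smooth muscle alpha actin, differed by 0.03 (-1.25 to 1.30). In HD28 cells, 7 members fell and 1 rose in limma, where 3.52% of all genes fell and 3.24% rose.

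Cell cycle genes, most of which fell in HD28 cells (25 of 29 in limma, against 3.52% of all genes, median -2.12), had no called member in dHD28 cells. Their median difference was 0.16, against -0.02 over all genes, and 26 of the 29 lay above 0. Only 13 had an interval inside a 2-fold change, where 84.0% of all genes did. The array means of the list were 10.01, 10.23 and 9.61 in dHD28 cells, against 10.26, 9.64 and 9.42 in MSC. The groups overlapped, with MSC replicate 1 the highest array. Mcm3, a subunit of the replicative helicase, had 10.47, 11.06 and 9.86 in dHD28 cells and 8.36, 7.95 and 7.95 in HD28 cells, against 11.13, 9.43 and 9.49 in MSC. The high class arrays, dHD28 replicate 2 and MSC replicate 1, were the highest of their groups. The difference was 0.45 (-0.74 to 1.64), the largest in the list, and 0.41 (-0.47 to 1.29) for Cdca8, a subunit of the chromosomal passenger complex. Mki67, the proliferation marker Ki-67, differed by 0.05 (-0.90 to 1.01).

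Of 24 glucocorticoid response genes, 15 rose in HD28 cells in limma, against 3.24% of all genes, and 0 were called between dHD28 cells and MSC, where the median was -0.03 and 14 intervals lay inside a 2-fold change. Tsc22d3, the glucocorticoid-induced leucine zipper, had 8.16, 7.53 and 8.15 in dHD28 cells and a mean of 11.77 in HD28 cells, against 7.53, 7.66 and 8.23 in MSC. The dHD28 and MSC arrays overlapped fully, at a difference of 0.14 (-0.79 to 1.06). Fkbp5, a co-chaperone of the glucocorticoid receptor, differed by 0.23 (-0.49 to 0.95). Mt2, a metallothionein, differed by -0.62 (-1.85 to 0.62), and by -0.23 without MSC replicate 3, where it was highest. Lcn2, the iron carrier lipocalin 2, differed by -0.86 and by -0.02 without MSC replicate 3.

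The oncostatin M and STAT3 response list had 5 of 23 genes risen in HD28 cells in limma, against 3.24% of all genes, and 0 called in dHD28 cells, with a median of 0.01. Lbp, the lipopolysaccharide binding protein, had 5.12, 5.68 and 4.36 in dHD28 cells, against 4.55, 4.39 and 5.43 in MSC, a difference of 0.26 (-0.87 to 1.39) with overlap. Socs3, the feedback inhibitor of gp130 signalling, had 7.48, 8.61 and 8.48 in dHD28 cells and 10.14, 9.98 and 9.87 in HD28 cells, against 8.64, 9.04 and 8.73 in MSC. Its dHD28 arrays lay below the MSC arrays, 2 of them by little, for a difference of -0.61 (-1.27 to 0.05), which was -0.11 without probe sets that can bind other transcripts.

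The 4 lists of hepatocyte function gave medians of -0.08 for 28 secreted proteins, -0.13 for 20 cytochrome P450 and conjugation enzymes, -0.03 for 18 transcription factors and -0.04 for 22 enzymes of the urea cycle, gluconeogenesis and amino acid use. No member was called in any of them. The array means of the secreted protein list were 4.05, 4.29 and 4.20 in dHD28 cells and 4.42, 4.61 and 11.12 in HD28 cells, against 4.26, 4.21 and 4.33 in MSC. Because HD28 replicate 3 alone was high, the intervals of these genes were wide: 0 of the 28 lay inside a 2-fold change in the fit of all arrays, 23 did with the dHD28 and MSC arrays alone, and 22 did without HD28 replicate 3. Kng1, a kininogen, differed by -0.74 (-3.21 to 1.73), and Serpinc1, antithrombin, by 0.62 (-2.46 to 3.70). In the 20 complement and coagulation genes the median was -0.19, with C1s1, a protease of the classical pathway, at -0.78 (-2.90 to 1.34), or 0.05 without dHD28 replicate 2.

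Extracellular matrix genes had a median of -0.10 over 30 genes, against -0.02 over all genes, with 0 called and 7 above 0. Dcn, the collagen binding proteoglycan decorin, had 7.19, 5.56 and 7.40 in dHD28 cells and 12.30, 12.79 and 12.52 in HD28 cells, against 5.67, 8.62 and 8.49 in MSC. The high class array was the lowest of both groups, and the difference was -0.88 (-3.01 to 1.25). With 1 array left out it ran from -0.30 (without dHD28 replicate 2) to -1.84 (without MSC replicate 1), and with the low class arrays alone it was -1.27 (-1.65 to -0.88), not a call in that fit. Thbs1, the matricellular protein thrombospondin 1, had 12.65, 11.14 and 12.01 in dHD28 cells, against 10.91, 11.74 and 10.97 in MSC, a difference of 0.73 (-0.58 to 2.03) with overlap. The array means of the list were 9.88, 9.28 and 9.95 in dHD28 cells, against 9.11, 10.21 and 10.09 in MSC, lowest in the high class array of each group, and the part of that signal in the list was not tested.

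Among 23 matrix proteases and inhibitors the median was -0.16 and none was called. Plat, the tissue plasminogen activator, differed by -0.81 (-1.83 to 0.21) and Adamts5, an aggrecan-cleaving protease, by 0.79 (-0.00 to 1.58). Mmp13, a collagenase, had 7.40, 4.15 and 8.20 in dHD28 cells, against 3.27, 9.06 and 9.66 in MSC, and its difference of -0.75 had an interval from -4.38 to 2.88. Only its high class arrays, dHD28 replicate 2 and MSC replicate 1, were below 5.

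Among the transcription factor lists, the Hox genes of positional identity had the narrowest median interval. It reached 0.46 log2 units to each side, near the 0.47 of all genes. Of 29 Hox genes, 26 had an interval inside a 2-fold change, where 84.0% of all genes did, and their median was 0.00. The widest differences were 0.56 (-0.09 to 1.20) for Hoxb6 and -0.52 (-1.24 to 0.20) for Hoxc8. With the dHD28 and MSC arrays alone, 26 Hox genes and 16 of 18 hepatocyte transcription factors lay inside a 2-fold change. No Hox gene was called in HD28 cells against MSC either. Of 34 mesenchymal and limb transcription factors, 24 lay inside a 2-fold change and the median was 0.00, with Twist2, a basic helix-loop-helix repressor, at 0.60 (-0.37 to 1.58). Of 19 stromal surface markers, 9 lay inside a 2-fold change. Thy1, a GPI-anchored surface glycoprotein, had 4.75, 5.71 and 5.86 in dHD28 cells, against 5.91, 3.91 and 4.35 in MSC, a difference of 0.72 (-0.32 to 1.75) with MSC replicate 1 the highest array. Pdgfrb, the PDGF receptor beta, differed by -0.53 (-1.56 to 0.50).

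The DNA methylation and demethylation list had 18 measured genes, a median of 0.01, 0 called and 1 with an unadjusted p under 0.05, which was Tet3. Dnmt1, the maintenance methyltransferase, had 8.72, 10.07 and 8.88 in dHD28 cells and 7.63, 7.72 and 7.60 in HD28 cells, against 10.03, 8.98 and 8.72 in MSC. The dHD28 and MSC arrays ran over the same range, each with its high class array on top, at a difference of -0.02 (-0.90 to 0.86). Uhrf1, which guides DNMT1 to hemimethylated DNA, had 10.32, 10.66 and 9.74 in dHD28 cells and 7.88, 7.08 and 7.62 in HD28 cells, against 10.93, 9.29 and 9.54 in MSC, a difference of 0.32 (-0.69 to 1.33). Dnmt1 and Uhrf1 were the 2 members that fell in HD28 cells in limma.

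The de novo enzymes differed little. Dnmt3a was at -0.04 (-0.67 to 0.59) and Dnmt3b at -0.06 (-0.35 to 0.22). Dnmt3l, their catalytically inactive partner, was at 0.06. Of the other TET dioxygenases, Tet1 was at 0.17 (-0.22 to 0.56) and Tet2 at 0.02 (-1.13 to 1.18). The methyl-CpG binding proteins lay at -0.10 for Mbd1, -0.04 for Mbd2, 0.37 for Mbd3, 0.00 for Mbd4 and 0.18 for Zbtb33. Uhrf2 was at 0.13, the cytidine deaminase gene Apobec1 at -0.45, and the stress genes Gadd45a, Gadd45b and Gadd45g at -0.76 (-3.09 to 1.57), 0.40 and 0.33. Gadd45a was at 0.22 without dHD28 replicate 2 and 0.15 without MSC replicate 3.

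Imprinted genes, 21 measured, had a median of -0.11 and 0 called. Interferon-stimulated genes, 26 measured, had a median of 0.08 and 0 called. Their mean was 5.91, 5.44 and 7.18 in dHD28 cells, against 5.59, 5.95 and 6.45 in MSC, with replicate 3 highest in both groups, and the part of these arrays in the median was not tested. Ifit1, an RNA-binding antiviral effector, had 6.14, 5.04 and 8.68 in dHD28 cells, against 5.27, 5.16 and 6.95 in MSC, a difference of 0.83 (-1.02 to 2.68) that was -0.20 without dHD28 replicate 3. Ifit3, its partner, had 5.57, 4.87 and 7.90 in dHD28 cells, against 4.97, 5.20 and 6.13 in MSC, a difference of 0.68 (-0.62 to 1.98) that was -0.21 without the same array.

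**Figure D5:**
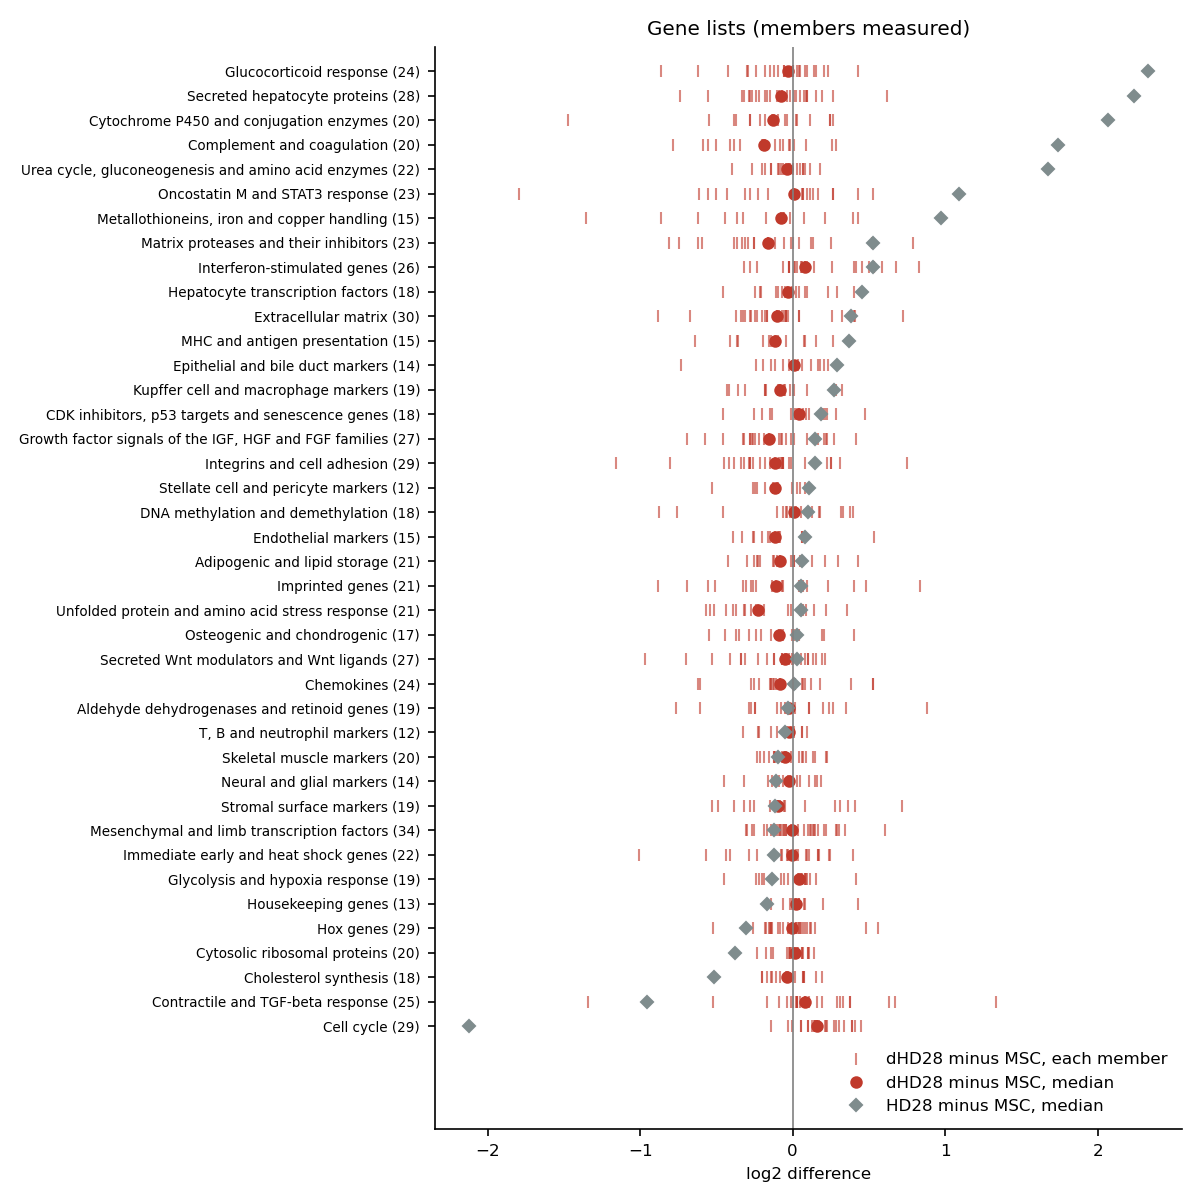
log2 difference for dHD28 minus MSC of each measured member (ticks) and their median (red points), with the median of HD28 minus MSC (grey diamonds), for 40 gene lists ordered by the last. The red medians lie between -0.23 and 0.16 while the grey ones run from -2.12 for cell cycle genes to 2.33 for glucocorticoid response genes. The grey values of hepatocyte lists rest on HD28 replicate 3.

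Over all 40 lists no measured member was called. The list medians for dHD28 minus MSC ran from -0.23 for the unfolded protein and amino acid stress list to 0.16 for the cell cycle list. The narrowest list was that of 20 cytosolic ribosomal proteins, all with an interval inside a 2-fold change and values from -0.23 for Rpl37 to 0.14 for Rps19. Markers of other cell types had medians of -0.08 for 19 Kupffer cell and macrophage genes, -0.11 for 15 endothelial genes, -0.12 for 12 stellate cell and pericyte genes, 0.01 for 14 epithelial and bile duct genes and -0.05 for 20 skeletal muscle genes.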

How the data were processed

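RNA from 5 groups of 3 samples was hybridised to Affymetrix mouse genome arrays. The deposited value table holds RMA values, per the submitters' processing notes, as log2 intensities. RMA includes quantile normalization, which gives all arrays one distribution, so a shift common to most genes would not be seen. The log base was read from the range of the deposited values, and the chip library and build are not given in the sources used here. Of 45101 probe sets, 64 controls were set aside, 34945 carried 1 gene symbol in the platform annotation, 932 several and 9160 none. Of the first, 34741 matched a RefSeq gene ID. Each gene was represented by its brightest probe set, by the mean of the 15 arrays.

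Groups were taken from titles. limma 3.58.1 in R 4.3.3 fitted 5 group means over 15 arrays, with moderated spread, Benjamini-Hochberg adjustment over 18193 genes and 95% intervals from the same fit. A call needed an adjusted p under 0.05 and 2-fold. The code was tested on simulated data. An exact permutation test of 3 against 3 arrays cannot go below 0.1. The number of arrays limits the precision. Named genes were the 12 highest and 12 lowest called genes (none here), the 5 in each direction with intervals farthest from 0, the 6 highest and 6 lowest of HD28 minus MSC, the 2 largest of a list without calls, and all DNA methylation genes. The largest differences of group means were added after the values were seen, and cell type markers were given as levels. Tagln, Acta2, Mki67, Tsc22d3, Fkbp5, Lbp, Mmp13 and Rps19 were named outside these rules. The members, lists and rules were chosen with earlier results of these data known. Alternatives changed the probe set, filter, normalization, spread, spike-in class, replicate block and arrays in the fit.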

Additional observations from a re-analysis of the deposited data

How the results depend on the processing

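No gene was called in limma for dHD28 minus MSC in the fit described or in any of 22 alternatives, where the lowest adjusted p was 0.416, with array weights. The share of genes with an interval inside a 2-fold change was 84.0% and ran from 74.1% (without MSC replicate 1 or dHD28 replicate 3) to 89.6% (block for spike-in class). The count at an unadjusted p under 0.05 was less stable. It was 205, and became 1643 with array weights and 615 with low spike-in arrays only. A block for spike-in class gave 330, and centring on housekeeping genes gave 320. With dim genes left out it was 31, of 9097 genes tested instead of 18193. With 1 array left out it ran from 67 (without dHD28 replicate 1) to 762 (without MSC replicate 1), with 481 and 556 without dHD28 replicates 2 and 3 and 122 without MSC replicate 3. The cause was not tested. Housekeeping centring moved the median of all genes from -0.02 to -0.07. Same-numbered dHD28 and MSC arrays deviated from their group means with correlations of -0.29, -0.64 and 0.69 across genes. The high spike-in class arrays, dHD28 replicate 2 and MSC replicate 1, correlated at 0.83. These values cannot tell whether same-numbered arrays share a culture, because the class falls on different replicate numbers in the groups. The replicate block gave 0 called genes, 303 at an unadjusted p under 0.05 and 85.8% inside a 2-fold change. Of 3488 values of named genes and lists under alternatives, 3472 moved by less than the spread between replicates, 16 moved by more and 0 reached a call. That spread includes any outlying array, so a value that rests on 1 array can still count as moved by less. Steap4, at -1.36 with all arrays and -0.03 without MSC replicate 3, was not among the 16. Among the 16, Plaat1 gave 0.21, Epsti1 -0.06 and Tet1 -0.13 with all probe sets averaged, and Ankrd1 gave 1.98 with low spike-in arrays only. The median distance between dHD28 and MSC arrays was 0.45, 0.54 over all probe sets and 0.50 without dim genes.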
